A study of Homo sapiens with 12 samples.

Results

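The comparison set dBRD9-A against its vehicle DMSO in G401 cells induced to express SMARCB1, with 3 ATAC-seq libraries per treatment, 6 of the 12 libraries of the series. G401, the only line used, was established from a rhabdoid tumour and is labelled SMARCB1(-/-). All 6 libraries came from cells given doxycycline for 24 h, which induced SMARCB1, together with either DMSO or dBRD9-A, a degrader of the protein BRD9. The other 6 libraries came from cells in which doxycycline induced GFP instead, again with DMSO (3 libraries) or dBRD9-A (3 libraries). They served to class regions and to test whether the dBRD9-A effect differed between the inductions. They were also used to check the SMARCB1 label and to look again at the named, gained and lost regions. No dose was given in the labels, which also do not say whether replicates were separate cultures, so p-values measure the spread between these libraries, which may be technical. The degradation of BRD9 itself was not measured by these data.

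SWI/SNF complexes use the energy of ATP to slide or evict nucleosomes and so open DNA for transcription factors. They come in several forms. SMARCB1 is a core subunit of the canonical BAF and the PBAF complexes, and BRD9, a bromodomain protein, belongs to the non-canonical form, which lacks SMARCB1. Rhabdoid tumours arise through loss of SMARCB1, and such cells are known to depend on BRD9. In ATAC-seq a transposase cuts and tags accessible DNA, so a peak marks an open stretch of chromatin. Here peaks had been called in each library from nucleosome-free fragments.

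Merging the 6 peak lists where peaks overlapped by at least 1 bp gave 166016 regions. Of these, 39539 (23.8%) had a peak in all 6 lists and are called shared regions, and 64816 (39.0%) had a peak in only 1 list. The median width rose from 86 bp for regions in 1 list to 264 bp for shared regions. Between 41.9% and 57.0% of the peaks of a library lay in shared regions.

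Library size differed more within a treatment than between treatments. The DMSO libraries had 76764, 90143 and 85925 peaks in replicates 1, 2 and 3, and the dBRD9-A libraries had 88244, 71169 and 96572. The 2 groups overlapped: dBRD9-A held both the shortest and the longest list. Read totals were not analysed here. Depth was read instead from the lowest local background in a list, in fragments per position, which was 0.0769, 0.0720 and 0.0926 in DMSO and 0.0950, 0.0487 and 0.111 in dBRD9-A. The dBRD9-A replicate 2 library was therefore the shallowest, and results are given with and without it. The geometric mean number of fragments at the summit of a shared region averaged 12.6 ± 0.607 over the 3 DMSO libraries and 12.9 ± 3.24 over the 3 dBRD9-A libraries (SD). For 5 measures per library (peak number, covered bases, median width, background pileup and this summit pileup), a two-sided exact permutation test gave a p of 0.9 or 1.0. The smallest p that 3 against 3 libraries allow is 0.1.

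The SMARCB1 label of the libraries could be set against chr22:24129357-24129451. By general knowledge of hg19 this 95 bp stretch lies in the SMARCB1 gene, although no annotation of that build was used here. It had a peak in all 6 SMARCB1 libraries and in 0 of the 6 GFP libraries. Without a library of uninduced SMARCB1 cells, this does not measure induction. Fragments of the introduced SMARCB1 sequence were not told apart from those of the cell's own locus. The signal is therefore not read as accessibility of that locus. Its summit pileup was 59, 45 and 75 fragments in the DMSO libraries and 50, 21 and 68 in the dBRD9-A libraries. The groups overlapped, and the rank difference had an adjusted p of 0.99996 in limma. Of 5 shared regions whose peak had the same start and end in all 6 lists, it was the only 1 without a GFP peak. This check was chosen after the values were seen.

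The next question was whether shared regions were ranked differently after BRD9 degradation. In each library the authors' fold enrichment, which is the summit pileup over the local background, was ranked among the 39539 shared regions and written as a percentile from 0 to 100. Ranks over the same regions have equal length in every library. With dBRD9-A, 0 regions were ranked higher (0.0%) and 0 were ranked lower (0.0%) at a Benjamini-Hochberg adjusted p under 0.05 in limma on normal scores of these ranks. The lowest adjusted p was 0.99996. At an unadjusted p under 0.05 there were 550 higher regions (1.39%) and 571 lower regions (1.44%), together 1121 (2.84%). Without DMSO replicate 3 the shared regions numbered 41842. The counts were then 931 and 810, together 4.16%, with the higher ones up by over 1.5 times. With the replicate number as a block, again 0 regions passed in either direction (lowest adjusted p 0.766), and 1102 higher (2.79%) and 1110 lower (2.81%), together 2212 (5.59%), had an unadjusted p under 0.05. Without dBRD9-A replicate 2, 0 of 43972 shared regions passed.

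The difference at a typical region was smaller than the SD of its replicates. Means of 3 libraries vary less than single libraries, so this comparison is a description and not a test. The absolute difference between the treatment means had a median of 6.34 percentile points and was under 10 points at 68.3% of shared regions. The SD between replicates of 1 treatment had a median of 12.5 points. In 3165 regions (8.0%) the 3 percentiles of one treatment all lay above the 3 of the other, 1534 (3.88%) with dBRD9-A higher and 1631 (4.13%) with dBRD9-A lower. With 6 exchangeable libraries a share of 0.1 would be so separated. Libraries of the same replicate number were more alike on average, as given below, and the share expected under that pairing was not computed. The count is therefore a description, and by itself it does not show an effect of dBRD9-A.

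**Figure D1:**
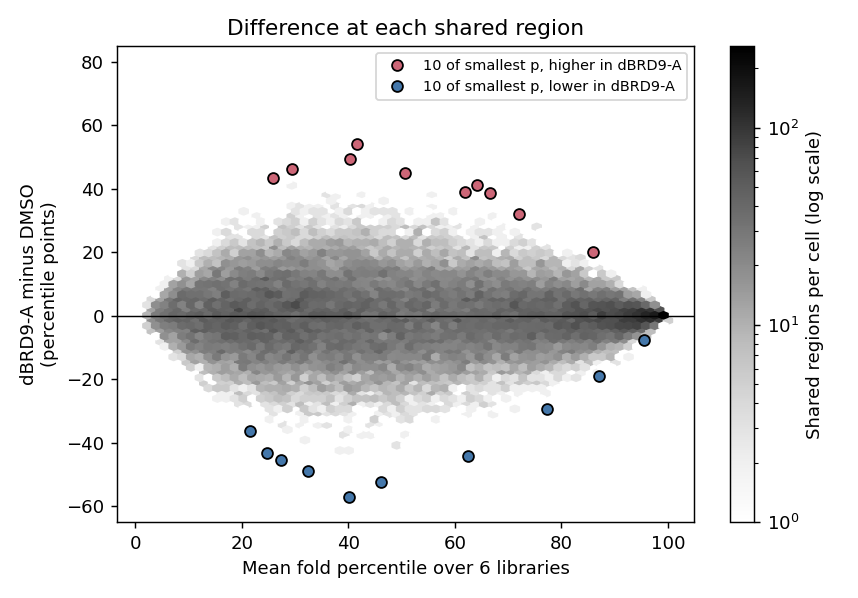
Difference in mean fold percentile, dBRD9-A minus DMSO, at each of the 39539 shared regions (vertical axis, percentile points) against the mean percentile over the 6 libraries (horizontal axis); grey shade gives the number of regions on a log scale. The coloured points are the 10 regions of smallest p in each direction, and the cloud lies evenly about 0.

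The interval of a region's difference varied in width between classes of region strength, but not in step with the number of fragments. The classes were cut on the mean of the same percentiles, whose scale is bounded at its ends. The scale itself can narrow intervals in the strongest and weakest 20%, so these widths do not measure precision by strength. The part of fragment number was not tested. In the strongest 20% of shared regions the median summit pileup was 29 fragments, and the median 95% interval of a region's difference, with the replicate block, reached 9.33 percentile points to each side. In the middle 20%, with a median of 12 fragments, it reached 27.4 points. In the weakest 20%, with a median of 6 fragments, it reached 18.2 points. The share of regions whose groups did not overlap was 8.75% in the strongest 20% and 7.90% in the weakest, close to the 8.0% over all shared regions.

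Libraries of the same replicate number were more alike, on average, than libraries of the same treatment. The Spearman correlation of ranks over the shared regions was 0.819 for the 2 libraries numbered 1, 0.772 for those numbered 2 and 0.820 for those numbered 3, a mean of 0.804. The pair numbered 2 lay below DMSO replicates 1 and 2, at 0.774. It also lay below DMSO replicate 2 with dBRD9-A replicate 1, at 0.785. The mean was 0.736 for pairs of equal treatment and 0.732 for pairs that shared neither number nor treatment. All libraries share depth limits and region strength, which raises every such value. All pairs of different treatment together had a mean of 0.756, so same-treatment pairs were lower by 0.0199 (two-sided exact permutation p 0.6 over 20 arrangements of the 6 libraries). Same-numbered pairs are counted in that 0.756, and without them the mean was the 0.732 above. The arrangements did not keep numbers together, so this p takes no account of the pairing. The lowest correlation, 0.672, was between dBRD9-A replicates 2 and 3. Among regions with a peak in just 2 lists, the 2 libraries numbered 3 alone held 4483, the most of any pair. The next was a mixed pair, DMSO replicate 2 with dBRD9-A replicate 1, at 2245; the libraries numbered 2 held 1860 and those numbered 1 held 1129, within the 721 to 1972 of same-treatment pairs. The libraries numbered 3 were also the ones of highest background pileup in their treatment, and the part of depth in this was not tested. The labels do not say whether the number marks a batch.

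**Figure D2:**
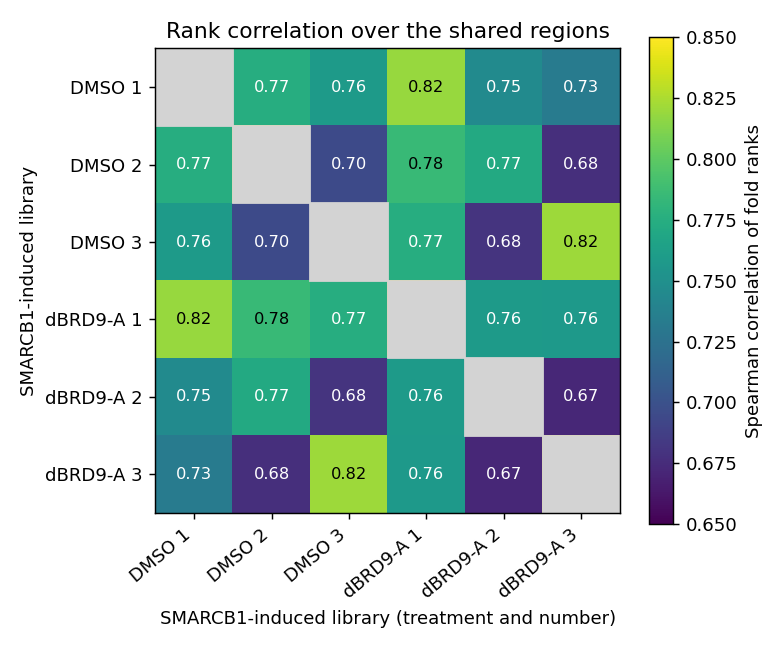
Spearman correlation of the fold ranks over the 39539 shared regions for each pair of the 6 SMARCB1-induced libraries; colour and the printed value give the correlation. The pairs DMSO 1 with dBRD9-A 1 and DMSO 3 with dBRD9-A 3 are the highest at 0.82, above every pair of the same treatment.

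Differences seen in 1 pair of same-numbered libraries did not recur in the others. Across the 39539 regions, the dBRD9-A minus DMSO differences of number 1 and number 2 correlated with r = 0.0066, those of 1 and 3 with r = 0.025 and those of 2 and 3 with r = 0.027. These are descriptions across regions of libraries that share none of the pairs. The differences between numbers were more alike across treatments: the change from number 2 to number 3 in DMSO correlated with that in dBRD9-A at r = 0.358, and the other pairs of numbers gave 0.119 and 0.254. The 500 regions that rose most in number 1 averaged 40.3 percentile points there, and 1.42 and 1.74 points in numbers 2 and 3. The 500 that fell most in number 3 averaged -38.9 points there, and -3.30 and -1.98 points in numbers 1 and 2. Over all 6 such sets the mean in an uninvolved pair lay between -3.30 and 2.69 points.

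**Figure D3:**
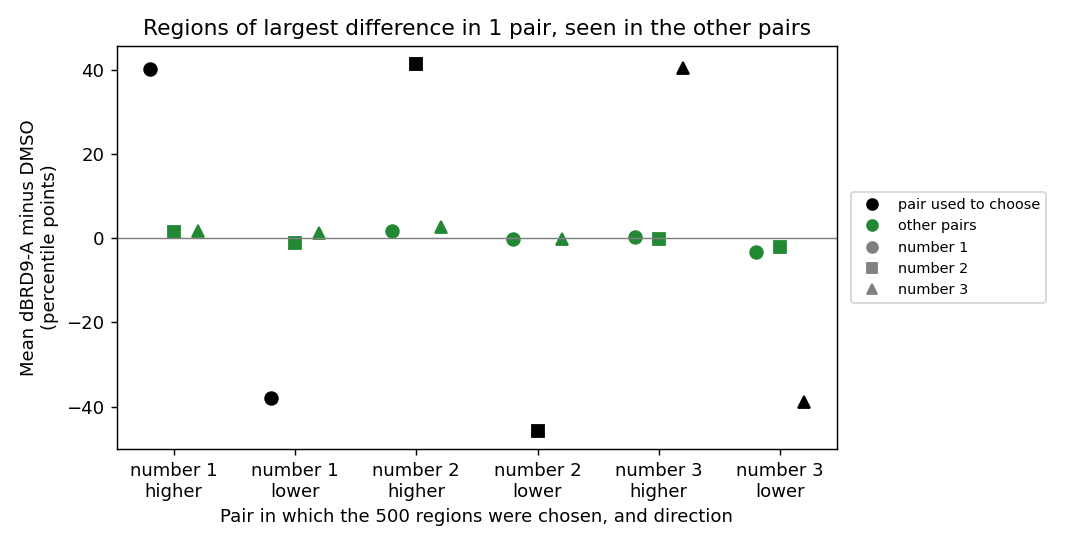
Mean dBRD9-A minus DMSO difference (percentile points) of the 500 regions of largest normal score difference in 1 pair of same-numbered libraries. It is shown in that pair (black) and in the other pairs (green). Symbols give the replicate number. Black points lie 38.0 points or more from 0, and green points between -3.30 and 2.69 points.

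Shared regions were then divided by the GFP libraries, which took no part in the ranks. Of the 39539 regions, 13635 (34.5%) had no peak in any GFP library. A further 7815 (19.8%) had a peak in 1 to 5 GFP libraries and 18089 (45.7%) in all 6. The GFP lists were shorter, with 33428 to 50089 peaks against 71169 to 96572 in the SMARCB1 lists. Their lowest background ran from 0.0383 to 0.0784, against 0.0487 to 0.111. The lack of a GFP peak therefore does not by itself show closed chromatin, and the part of depth was not tested. Regions without a GFP peak had a median percentile of 34.5, 31.8 and 35.7 in the DMSO libraries and 34.1, 30.9 and 35.6 in the dBRD9-A libraries. The groups overlapped, and the means of 34.0 ± 2.01 and 33.5 ± 2.43 (SD, n = 3 each) differed by -0.486 points (exact permutation p 0.7; adjusted over 8 classes 0.933). Within replicate numbers the differences were -0.477, -0.916 and -0.0670 points. Without dBRD9-A replicate 2 the difference was 1.05 points and without DMSO replicate 3 it was 0.112, so it changed sign without either library.

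Regions open in every GFP library stood much higher in the lists, with a median percentile averaging 68.1 ± 1.46 over the 3 DMSO libraries and 68.1 ± 2.17 over the 3 dBRD9-A libraries (SD). They differed by -0.0674 points between treatments (exact permutation p 1.0). For regions in 1 to 5 GFP libraries the medians were 37.3 ± 0.562 and 37.7 ± 1.10 (SD, n = 3 each; exact permutation p 0.6). In limma 0 regions of any of the 3 classes passed the adjusted threshold. The share whose groups did not overlap was 6.92%, 8.24% and 8.72% in the 3 classes, against 8.0% over all shared regions. In each of the 3 classes the difference between treatments was smaller than the SD between libraries of 1 treatment, which again is not a test. Within replicate numbers, regions without a GFP peak were lower with dBRD9-A in 3 of 3, with an SD of 0.424 points (exact sign-flip p 0.25, the smallest possible).

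**Figure D4:**
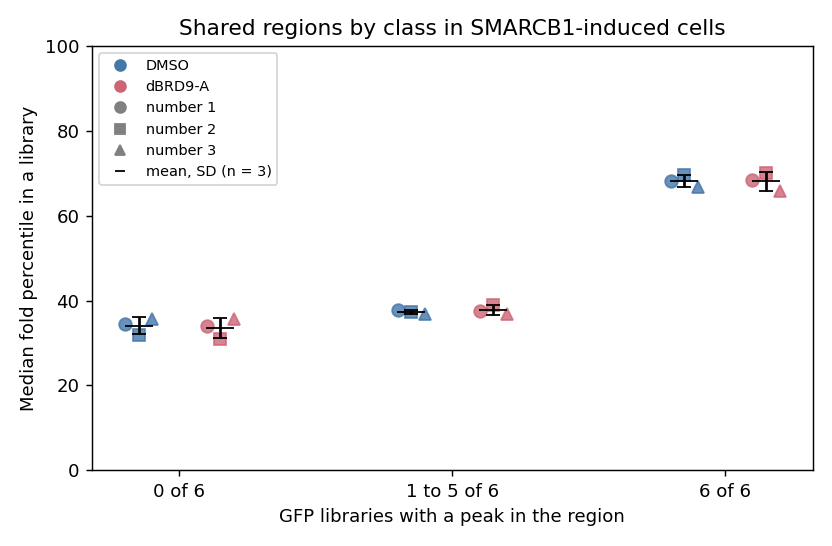
Median fold percentile of the shared regions in each SMARCB1-induced library (points; blue DMSO, red dBRD9-A; symbols give the replicate number), by how many of the 6 GFP libraries have a peak there; black bars are the mean and SD of 3 libraries. The treatments overlap in each class, at about 34 for regions without a GFP peak and 68.1 for regions in all 6.

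Width was the other property examined. The narrowest 20%, from 84 to 187 bp, had median percentiles of 33.1, 39.8 and 35.9 in DMSO and 35.1, 41.7 and 39.4 in dBRD9-A. It was higher with dBRD9-A by 1.92, 1.88 and 3.5 points within numbers 1, 2 and 3, and by 2.43 points on average (exact permutation p 0.5; adjusted 0.933). The widest 20%, from 380 to 1343 bp, differed by -1.13, 0.754 and -3.54 points within numbers 1, 2 and 3, with a mean of -1.31 (exact permutation p 0.6). Taken within replicate numbers, the differences of the narrowest 20% had an SD of 0.926 points around their mean of 2.43, and all 3 were above 0. The exact sign-flip test gave its smallest possible p, 0.25 (0.5 adjusted over the 8 classes), so 3 pairs cannot place this difference past the threshold. The next narrowest 20% was likewise higher in 3 of 3 numbers, by 0.625 points on average, and the next to widest was lower in 3 of 3, with a mean of -0.812 (exact sign-flip p 0.25 each). For the widest 20% that p was 0.5.

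By chromosome, the 23 with at least 100 shared regions had differences between -1.32 points on chromosome 21 and 2.51 points on chromosome 22. Chromosome 22 was the 1 with the highest share of regions whose groups did not overlap, 10.8% of 943. No chromosome passed after adjustment over the 23 tests (exact permutation, adjusted p 1 for each). With 3 against 3 libraries this test cannot give a p below 0.1, so none could have passed. The lowest unadjusted p, 0.1, is the smallest possible and was that of chromosome 14, which was higher by 1.56 points in dBRD9-A. Within replicate numbers, chromosomes 14, 19 and 22 were higher with dBRD9-A in 3 of 3. Chromosomes 5, 6 and 11 were lower in 3 of 3, and the rest were mixed.

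The regions of smallest p were taken as the ones to describe, 10 in each direction, although none passed the test. In all 20 the treatments did not overlap, as the choice favours. Their unadjusted p in limma ran from 0.00034 to 0.0022, every adjusted p was 0.99996, and with the replicate block the adjusted p lay between 0.766 and 0.870. A gene could not be assigned to any of them, because the gene table in use is of another build.

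The first region higher with dBRD9-A was chr22:37963426-37963548, 123 bp wide. Its percentiles were 12.4, 15.1 and 15.98 in the DMSO libraries and 63.8, 58.8 and 83.5 in the dBRD9-A libraries. All 3 DMSO values were low and all 3 dBRD9-A values above the middle of the list. The counts behind them were small, with summit pileups of 6, 7 and 8 fragments against 19, 10 and 29. The region chr20:35807215-35807534 rested on more fragments, 23, 24 and 23 against 48, 27 and 38. Its percentiles of 80.3, 76.2 and 71.1 in DMSO and 97.2, 96.4 and 94.3 in dBRD9-A put it in the upper part of the lists in DMSO and near the top in dBRD9-A, and it had a peak in all 6 GFP libraries. The region chr19:50050191-50050466, also in all 6 GFP libraries, had percentiles of 59.97, 28.4 and 42.3 in DMSO and 89.3, 83.0 and 81.7 in dBRD9-A. Its DMSO values were spread widely, and its summit pileups were 14, 9 and 11 against 31, 16 and 25 fragments.

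Of these 10 regions, 2 had no peak in any GFP library. At chr2:153916293-153916470 the percentiles were 3.1, 2.2 and 6.9 in DMSO and 48.0, 59.2 and 35.5 in dBRD9-A, on summit pileups of 3, 3 and 4 against 11, 9 and 9 fragments. At chr1:221342955-221343224 they were 1.8, 5.9 and 11.0 against 42.0, 43.3 and 72.0. Both were among the weakest shared regions in DMSO, just above the level at which a peak was called. The other 5 were chr15:73598317-73598505, chr19:24269781-24270045, chr1:120092376-120092505, chr6:40973982-40974119 and chr19:13229623-13229812, with differences between 32.0 and 49.4 points. The 3 of the 10 that lay on chromosome 19 had mean percentiles of 84.7, 85.98 and 88.0 in dBRD9-A.

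Among the regions lower with dBRD9-A, chr19:1568270-1568541 had the largest difference of any shared region, -57.2 points. Its percentiles were 81.8, 56.9 and 67.3 in DMSO and 16.3, 1.5 and 16.7 in dBRD9-A, and its summit pileups 20, 13 and 16 against 8, 3 and 8 fragments. Every DMSO library ranked it above the middle and every dBRD9-A library near the bottom. It had a peak in all 6 GFP libraries, and its unadjusted p with the replicate block was 2.0e-05 (limma; adjusted p 0.766). The smallest p without the block, 0.00034, belonged to chr5:27472225-27472486, a strong region at 99.7, 99.0 and 99.5 in DMSO and 92.2, 88.6 and 94.3 in dBRD9-A. Its summit held 39, 36 and 37 fragments against 29, 17 and 29.

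Strong regions also included chr1:249153131-249153375, at 94.9, 87.5 and 93.5 against 70.9, 57.2 and 59.8, and chr10:134036704-134036911, at 97.1, 94.9 and 97.9 against 74.0, 71.4 and 87.4. Each had a peak in all 6 GFP libraries. At chr2:120165400-120165512 the percentiles were 46.6, 56.7 and 35.7 in DMSO and 1.6, 3.3 and 4.4 in dBRD9-A, where the summit held 3, 3 and 4 fragments. The remaining 5 were chr15:57323954-57324154, chr22:37040426-37040549, chr8:116681216-116681434, chr16:4166453-4166747 and chr1:209305421-209305694, with differences between -52.5 and -36.1 points. Of these, only the region on chromosome 15 had no GFP peak.

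The GFP libraries gave a measurement of these regions that the choice had not used. Of the 10 higher regions, 6 had a peak in all 12 lists, and in GFP cells 3 of them were higher and 3 lower with dBRD9-A, between -13.0 and 10.3 points. Of the 10 lower regions, 5 were in all 12 lists. In GFP cells 4 of those were lower and 1 higher, with a median of -3.55 points. The largest fall was at chr1:249153131-249153375, from a mean percentile of 68.8 in GFP DMSO to 44.7 in GFP dBRD9-A, and the 1 that was higher was chr8:116681216-116681434, from 16.9 to 45.5. Over all 18114 regions in the 12 lists, the effects in SMARCB1-induced and GFP cells had the same sign in 51.2%. Agreement of sign at the few named regions was not tested.

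**Figure D5:**
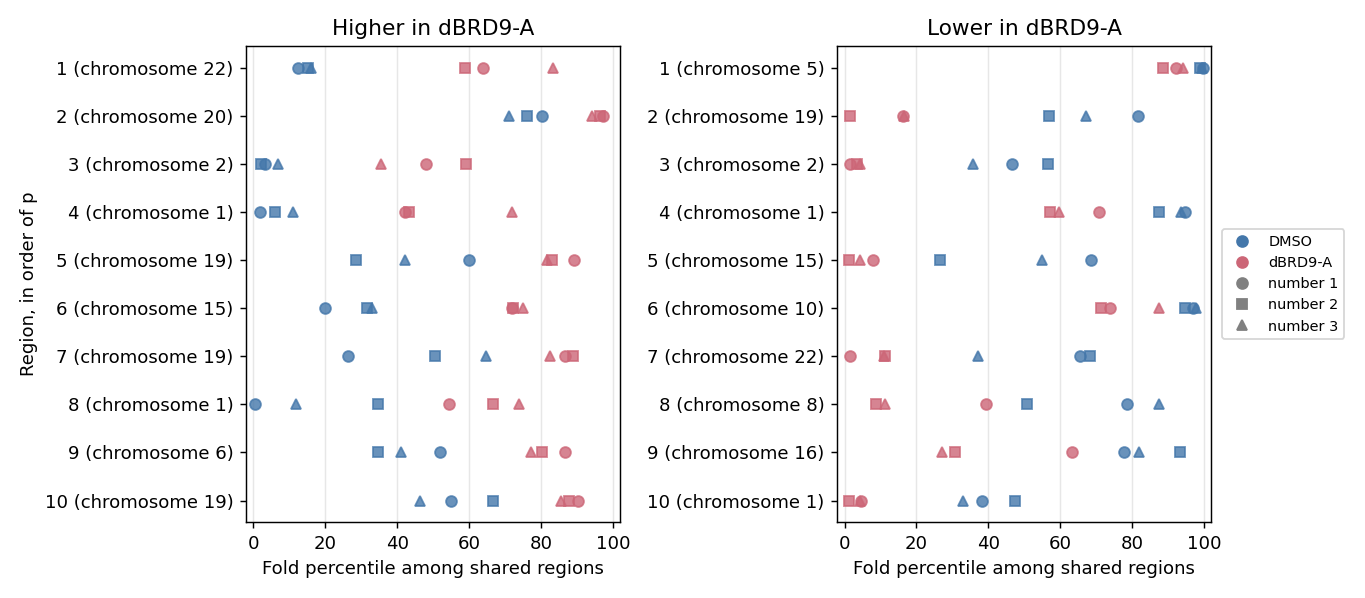
Fold percentile among shared regions (horizontal axis) of the 10 regions of smallest p that were higher (left) and lower (right) with dBRD9-A, in order of p, for each DMSO library (blue) and dBRD9-A library (red); symbols give the replicate number. In all 20 the treatments are separated, the widest gap in means being that of the second lower region, on chromosome 19 (-57.2 points).

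Whether the dBRD9-A effect in SMARCB1-induced cells differed from that in GFP cells was tested at 18114 regions, those found in all 12 lists. The comparisons share no library. In limma 0 regions (0.0%) had a difference of effects at an adjusted p under 0.05 (lowest adjusted p 0.999), and 746 (4.12%) had an unadjusted p under 0.05. The effects had the same sign in 51.2% of the regions and correlated with r = 0.043 across them. The median 95% interval of the difference was 1.06 normal score units to each side, against a median absolute effect of 0.236 in SMARCB1-induced cells.

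Presence and absence of peaks gave the last comparison. A region was called gained when all 3 dBRD9-A lists and none of the 3 DMSO lists had a peak, and lost in the reverse case. Of 14494 regions held by exactly 3 lists, 496 were gained (3.42%) and 450 lost (3.10%), together 6.53%. The other 13548 were split between the treatments. Per region, 3 against 3 libraries cannot give a p below 0.1, so these are counts without a test. Without dBRD9-A replicate 2 there were 160144 merged regions, of which 2470 were gained and 773 lost. A gain then needed 2 lists and a loss 3. The 2 counts were thus drawn from unlike pools, and the larger number of gains is not read as a result. With any other library left out the counts also rose by over 1.5 times, to between 886 and 1469 gained and between 1166 and 1894 lost. Those merges held between 149702 and 159103 regions, and the rule again rested on fewer lists in 1 treatment. The shares of 3.42% and 3.10% therefore do not apply to them.

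Gained and lost regions were weak peaks. Their median summit pileup was 4 fragments in both classes, equal to that of the other 13548 regions, and their highest was 21. The median width was 143 bp for gained, 152.5 bp for lost and 158 bp for the others. A peak in no GFP library was seen for 61.9% of gained, 70.9% of lost and 74.1% of the other regions. The GFP lists were shorter than the SMARCB1 lists, and the part of depth in these shares was not tested. In each of the 6 GFP libraries a peak was more frequent at gained regions than at the others, a difference that was not tested. Gained regions had a peak in 16.4% ± 5.20 of cases in the GFP DMSO libraries and 19.5% ± 9.71 in the GFP dBRD9-A libraries (SD, n = 3 each; exact permutation p 0.7). For lost regions these were 12.1% ± 2.06 and 13.6% ± 5.46 (SD, n = 3 each; exact permutation p 0.9), and for the others 12.3% ± 2.51 and 13.1% ± 4.80. The gained pattern recurred in full in GFP cells for 3 of the 496 regions, and the lost pattern for 1 of the 450, while 4 of the 450 had the reverse pattern there. Among the other 13548 regions, 32 had a peak in the 3 GFP dBRD9-A libraries alone and 9 in the 3 GFP DMSO libraries alone. These totals are very unlike in size, so the counts cannot be compared directly, and they were not tested.

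The strongest gained region by its mean percentile in the whole lists, 69.1, was chr22:31975919-31976109, with 10, 9 and 9 fragments at its summit in dBRD9-A replicates 1, 2 and 3. No GFP library had a peak there, nor at chr1:118843582-118843733, with 10, 5 and 11 fragments. By contrast chr7:38403149-38403261 and chr18:44135815-44135921 had a peak in 5 of the 6 GFP libraries, and chr7:150705900-150706022 in 3. Absence from the DMSO lists was thus not absence from all vehicle-treated cells.

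Lost regions were led by chr13:103248603-103248700, with a mean list percentile of 72.9 and summit pileups of 14, 17 and 20 fragments in DMSO replicates 1, 2 and 3. It had a peak in all 6 GFP libraries, 3 of them treated with dBRD9-A. The same held for chr7:101457489-101457622, with 13, 10 and 11 fragments. At chr4:15656849-15657209, 361 bp wide, the peak was found in 3 GFP DMSO libraries and 1 GFP dBRD9-A library, and its summit pileups were 14, 11 and 9. The last of the 5, chr1:95330482-95330677 and chr1:26483324-26483482, each had a peak in 2 GFP libraries of either treatment.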

How the data were processed

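Each library had 1 peak list. Per the submitters' processing notes, the build was hg19 and the tools included BWA 0.7.12-r1039, SAMtools 1.2, bedtools 2.24.0 and MACS2 2.1.1.20160309; their settings and any filter on the lists are not given in the sources used here. The deposited lists give the fold enrichment (a ratio), −log10 p values, −log10 q values and the summit position, computed by the authors per library. The fold is the authors' value and was used only to rank and describe peaks.

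For each peak, summit pileup and local background were solved from its fold and −log10 p (pseudocount 1, Poisson tail). Whole fragments were obtained for 100% of peaks within 0.001, and the smallest background of a list served as depth.

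A region's highest fold per list was ranked among shared regions, ties averaged, turned into normal scores and fitted in limma 3.58.1 (R 4.3.3) with a mean trend, without a block, Benjamini-Hochberg adjusted over all regions. Library values were compared by two-sided exact permutation (SciPy 1.17.1), adjusted over 5 measures, 8 classes or 23 chromosomes; within replicate numbers, an exact sign-flip test was used. The scripts were tested on simulated data. Deviations from the group means of same-numbered libraries correlated at 0.104, 0.256 and 0.365, all above 0.1, so numbers were taken as pairs, from the data and not from the labels, and fits with the replicate block are given.

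Regions named were the 10 of smallest p in each direction and the 5 gained and 5 lost of highest mean whole-list percentile. The members, lists and rules were chosen with earlier results of these data known; the sets of 500 regions, the chromosome split, the split by strength and the check of the SMARCB1 label were chosen after the values were seen. Gene lists, cell type markers, promoter position and motif shares had been planned and were not run, because the gene table and promoter sequences in use are of GRCh38.p14.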

Additional observations from a re-analysis of the deposited data

How the results depend on the processing

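The number of shared regions that passed the adjusted threshold was 0 in each direction under every alternative run: ranks of the −log10 p or, added after seeing the data, of the summit pileup, whole-list percentiles, percentiles in place of normal scores, a stricter list (−log10 q of 5 or more), summit windows, the replicate block and each library left out. The difference of effects between SMARCB1-induced and GFP cells also gave 0 with the −log10 p ranked, the block and each of 12 libraries left out. The replicate block changed no call. It moved the regions at an unadjusted p under 0.05 to 1102 and 1110 (together 5.59% of 39539). Leaving out DMSO replicate 3 moved them to 931 and 810 (together 4.16% of 41842). For the 20 named shared regions the sign was largely fixed by their choice, since their groups do not overlap; 10 of them had no value in the stricter list, and the lowest adjusted p under any alternative was 0.766. In the stricter list the gained and lost counts fell to 276 and 198, and the difference in covered bases was -0.0819 Mb in place of 0.00312 Mb; the cause was not tested. For the 5 library measures the sign-flip test within replicate numbers gave p of 0.75 or 1 (smallest possible 0.25). For the 8 classes this test, added after seeing the data, gave p from 0.25 to 1.

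With each library left out in turn, gained regions ranged from 886 to 2470 and lost regions from 773 to 1894, as the rule then rests on fewer lists. Differences between dBRD9-A and DMSO ranged from -4571 to 8131 peaks, from -0.938 to 1.39 Mb covered, from -3.17 to 0.833 bp in median width, from -0.00867 to 0.0225 in background pileup and from -0.671 to 2.19 fragments at shared summits. In percentile points they ranged from -1.44 to 1.05 for regions in 0 GFP libraries, from -0.301 to 0.993 for 1 to 5, from -1.12 to 1.004 for 6, and, over 5 equal classes from narrow to wide, from 0.566 to 3.60, from -0.392 to 1.66, from -0.395 to 1.008, from -1.97 to -0.519 and from -2.39 to 0.311. Apart from the narrowest class and the next to widest, which kept their sign without passing the test, each of these differences changed sign without at least 1 library. The correlation of same-treatment minus mixed pairs ranged from -0.0291 to -0.0124. A list holds only called peaks, with a median summit pileup of 6 or 7 fragments; the part of depth was not tested.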

Other observations

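Neighbouring shared regions were compared for their differences in fold percentile. For the 2406 pairs of neighbours less than 1000 bp apart, the mean dBRD9-A minus DMSO differences correlated at r = -0.127, and for the 3398 pairs from 1000 to 5000 bp apart at r = -0.124. Beyond that the values were close to 0: 0.0165 for 12540 pairs from 5000 to 20000 bp apart and 0.0161 for 15820 pairs up to 100000 bp apart. With the recovered summit pileup ranked in place of the fold, near neighbours gave 0.0729 and 0.0467. The local background by which the fold is divided was shared between them, as its differences correlated at 0.985 under 1000 bp and at 0.815 up to 5000 bp, but at 0.0728 from 5000 to 20000 bp. These are descriptions across regions, which are not independent replicates. The sign of the correlation between near neighbours depended on the value ranked, while the number of regions passing the test was 0 with either.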
